A study of Homo sapiens with 6 samples.

Results

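The hypoxia inducible genes outside glycolysis were a set of 36 genes chosen by name, namely the subunits of the hypoxia inducible factors (HIF), genes that regulate them, and known HIF targets that are not glycolytic enzymes. The choice was made with earlier results of these data known, so shares set beside all tested genes are descriptions and not independent support. All 36 were found among the 20030 genes of the deposited table. They comprised 4 HIF subunits, 4 HIF regulators, 2 genes of pH regulation, 3 genes of glucose entry and fructose-2,6-bisphosphate, 5 genes of mitochondrial proteins, 5 collagen and matrix enzymes, 4 secreted proteins, 3 JmjC dioxygenases and 6 other induced genes. Their mRNA was measured in HepG2, an established human hepatoma line, in 3 libraries with a control hairpin (sh-ctrl) and 3 libraries with a hairpin that targets KIF11 (sh-KIF11). KIF11 is a mitotic kinesin motor. In both groups the short hairpin RNA (shRNA) was expressed from the lentiviral vector pLKO.1 under puromycin selection, and poly(A) RNA was sequenced. The sample labels name 1 shRNA besides the control. Whether all 3 sh-KIF11 libraries carried the same hairpin sequence was not given in the sources used here. Whether the cells were a pool or a clone, the oxygen level, and whether the 3 libraries of a group came from separate cultures were not given either. The p-values therefore measure the spread between these libraries, which may be technical.

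HIF is a pair of an oxygen-sensitive alpha subunit and the stable beta subunit ARNT. With oxygen, EGLN prolyl hydroxylases mark the alpha subunit, VHL binds the marked protein and it is degraded, so most of this control acts on protein and not on mRNA. Without oxygen the pair binds short DNA motifs near its target genes, which change glucose use, mitochondrial activity, acid export, matrix crosslinking and secreted signals. Liver tumour cells are known to use this programme in poorly perfused tissue.

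Changes were tested two-sided by edgeR's quasi-likelihood method, with Benjamini-Hochberg adjustment over the 12369 genes that passed a filter on low counts, and a gene was called with an adjusted p under 0.05. Levels of 1 gene between libraries are given in CPM, counts scaled to library size after TMM scaling, and levels of different genes are compared in FPKM, which is per length. Of the 36 genes, 33 passed the filter. HIF3A, CA12 and STC1 did not. Among the 33 tested genes, 26 fell, 4 rose and 3 were not called. Over all tested genes 34.7% were called lower and 34.4% higher, 69.1% in all. The median log2 fold change, sh-KIF11 against sh-ctrl, was -0.74 for the 33 genes and 0.00 for all tested genes. At least a 2-fold fall was found for 11 of the 33 genes, and for 3.52% of all tested genes. PFKFB3 was the only gene of the 33 with at least a 2-fold rise, against 8.13% of all tested genes. Scaling by library totals alone moved the median of all tested genes to 0.24 and the share of higher genes among those called from 49.8% to 73.6%, and 22 of the 33 genes were then lower and 6 higher (median -0.51). The median was -0.47 where at least 10 counts in every library were required, with 23 of 30 genes lower, and -0.32 on log2(FPKM + 1). CA9, NDUFA4L2 and ANGPTL4, which are among the 26 and the 11, were not kept with at least 10 counts in every library. They passed the filter on low counts through the sh-ctrl libraries, and entry in this way favours a fall over a rise. The count with at least a 2-fold fall was 7 with library totals alone, 7 with at least 10 counts in every library and 5 or 6 in fits of log2 FPKM. All libraries of 1 group lay on 1 side of the other group for 30 of the 33 genes, and for 71.2% of all tested genes.

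The libraries held from 18167773 to 19583282 counts. At this depth the limit of 3 counts corresponded to 0.145 to 0.178 CPM, for counting error only. Libraries of 1 group differed by more than sampling noise, and none was counted as a duplicate (chi-square per degree of freedom 2.67 to 8.11 within groups and 84 to 102 between groups, the highest within-group values with sh-ctrl library 3). The targeted gene was lower in the sh-KIF11 libraries, with 116 ± 5.01 CPM for sh-ctrl against 68.8 ± 5.16 CPM for sh-KIF11 (SD, n = 3 each; log2 fold change -0.75, standard error 0.0573, edgeR adjusted p = 4.22e-15). The 9 hepatocyte markers were all expressed, 8 of them were lower in sh-KIF11, and their summed level was 32203 to 33763 CPM in sh-ctrl and 14360 to 15499 CPM in sh-KIF11. Of 4 endothelial markers 2 had at most 3 counts in every library, and the list summed to 3.16 to 3.56 CPM in sh-ctrl and 4.69 to 4.98 CPM in sh-KIF11. The 4 fibroblast markers summed to at most 0.499 CPM in any library, with DCN at 0. The immune list was almost entirely LYZ (2613 CPM in sh-ctrl, 511 CPM in sh-KIF11), PTPRC and CD3E had at most 3 counts, and CD79A rose from 0.948 to 3.54 CPM. The part of these markers in the results was not tested. Fewer expressing cells and less RNA per cell cannot be told apart in such bulk libraries.

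**Figure D1:**
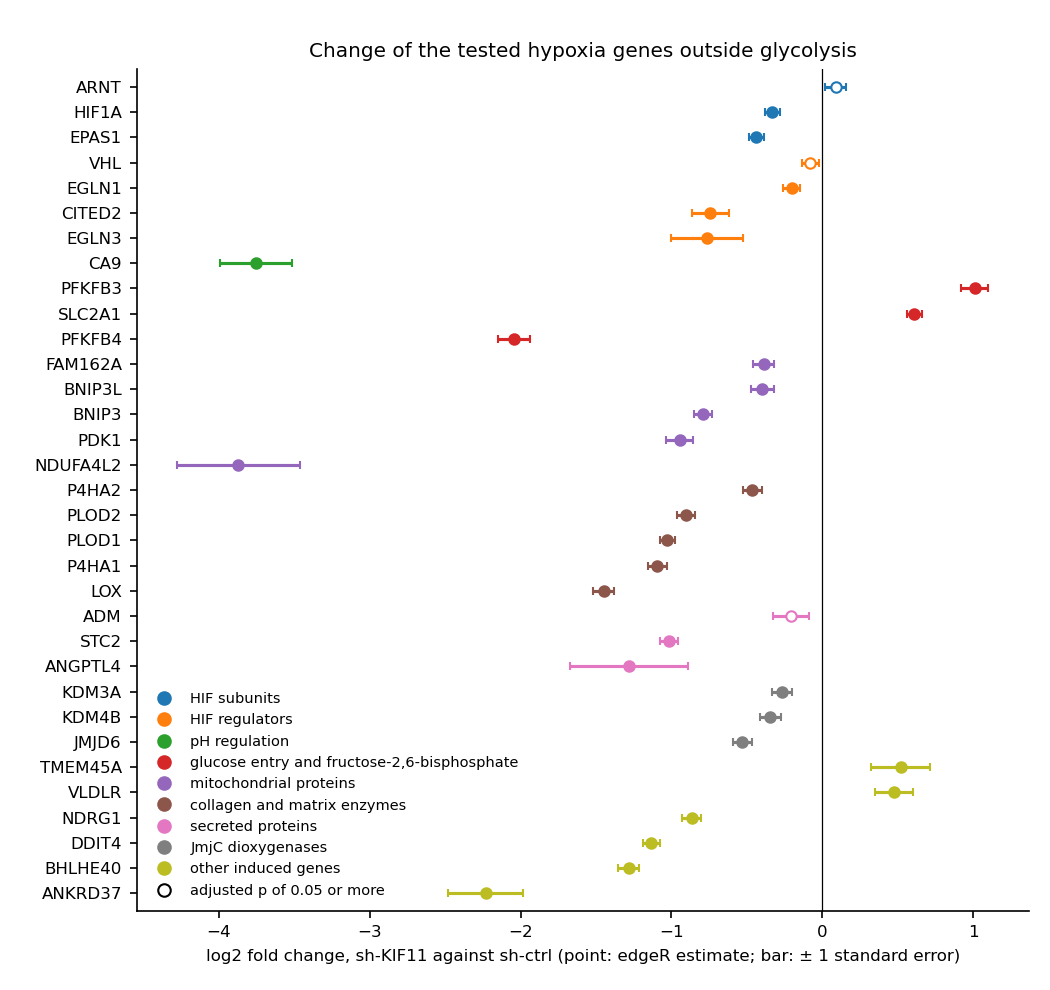
Log2 fold change of the 33 tested genes, sh-KIF11 against sh-ctrl, ordered by role. Points are edgeR estimates, bars are 1 standard error on either side, and open points had an adjusted p of 0.05 or more. The points run from -3.87 for NDUFA4L2 to 1.01 for PFKFB3, and 4 filled points lie to the right of 0.

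The sequences of the 250 bases before the transcription start are shown for the 5 genes with the lowest fold change and for PFKFB3, which had the largest rise, because these genes carried the widest differences. They come from RefSeq (GRCh38.p14) and are written 5′ to 3′ on the gene's own strand. Capitals mark ACGTG and GCGTG, the letters of the HIF motif, or their reverse complements CACGT and CACGC.
NDUFA4L2, chr12:57240763-57241012, minus strand: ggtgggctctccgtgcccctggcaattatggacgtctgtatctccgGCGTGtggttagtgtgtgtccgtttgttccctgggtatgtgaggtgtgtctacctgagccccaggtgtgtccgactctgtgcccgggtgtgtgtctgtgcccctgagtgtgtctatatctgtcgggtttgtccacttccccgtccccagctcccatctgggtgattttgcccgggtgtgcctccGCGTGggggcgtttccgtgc
CA9, chr9:35673678-35673927, plus strand: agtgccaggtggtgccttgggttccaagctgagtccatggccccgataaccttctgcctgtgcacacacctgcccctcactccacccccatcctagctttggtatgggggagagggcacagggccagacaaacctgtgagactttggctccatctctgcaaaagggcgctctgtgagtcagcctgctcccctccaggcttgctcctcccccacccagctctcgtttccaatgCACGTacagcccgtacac
ANKRD37, chr4:185396591-185396840, plus strand: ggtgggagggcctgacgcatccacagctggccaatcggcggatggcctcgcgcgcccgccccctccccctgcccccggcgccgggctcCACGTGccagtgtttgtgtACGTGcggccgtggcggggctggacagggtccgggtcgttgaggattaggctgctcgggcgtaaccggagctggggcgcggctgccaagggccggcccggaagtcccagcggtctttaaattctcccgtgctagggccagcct
PFKFB4, chr3:48556804-48557053, minus strand: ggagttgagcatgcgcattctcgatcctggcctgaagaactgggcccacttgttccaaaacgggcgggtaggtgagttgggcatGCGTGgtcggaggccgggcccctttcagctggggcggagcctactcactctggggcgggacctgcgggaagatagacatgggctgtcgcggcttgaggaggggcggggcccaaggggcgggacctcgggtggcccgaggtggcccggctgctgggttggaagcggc
LOX, chr5:122078260-122078509, minus strand: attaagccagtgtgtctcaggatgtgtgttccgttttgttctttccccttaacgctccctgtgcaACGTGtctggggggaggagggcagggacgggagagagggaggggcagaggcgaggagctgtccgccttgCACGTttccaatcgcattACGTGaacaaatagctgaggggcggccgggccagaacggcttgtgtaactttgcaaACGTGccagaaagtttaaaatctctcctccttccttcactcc
PFKFB3, chr10:6144671-6144920, plus strand: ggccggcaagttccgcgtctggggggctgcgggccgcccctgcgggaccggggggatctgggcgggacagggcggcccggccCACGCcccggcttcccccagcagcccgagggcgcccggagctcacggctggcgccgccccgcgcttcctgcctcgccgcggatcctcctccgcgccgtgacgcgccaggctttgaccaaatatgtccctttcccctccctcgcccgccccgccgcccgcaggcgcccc
PFKFB3, chr10:6202682-6202931, plus strand: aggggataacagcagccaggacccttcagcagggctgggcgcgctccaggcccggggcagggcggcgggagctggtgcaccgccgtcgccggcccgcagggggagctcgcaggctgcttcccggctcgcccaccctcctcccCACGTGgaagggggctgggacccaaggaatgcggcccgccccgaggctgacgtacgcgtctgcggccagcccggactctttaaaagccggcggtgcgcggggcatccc
LOX and NDUFA4L2 have further start sites in the table that are not printed, and PFKFB3 is shown with both of its own.

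ANKRD37 held 3 matches to ACGTG, 2 of which overlap in CACGTG, which reads the same on both strands. LOX held 4 matches to ACGTG in the printed window. The match in the CA9 window was to ACGTG on the opposite strand, 18 bases before the start. In NDUFA4L2 and PFKFB4 the matches were to GCGTG only. The upstream window of PFKFB3 held 1 match to GCGTG and the downstream window 2 overlapping matches to ACGTG. Genes with the lowest fold changes and the gene with the largest rise thus all held at least 1 match. In windows of 300 bases, so did 69.7% of 10111 tested genes. The genes shown were chosen by name as known HIF targets, so matches in them were likely from the start.

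RefSeq windows of 300 bases, from 250 before to 50 after the start, were found for 31 of the 36 genes. BNIP3L, STC1, NDRG1, JMJD6 and VHL had no entry. A gene with several windows was counted if any of them held a match. At least 1 match to either motif on either strand was found in 27 of the 31 genes (87.1%), in 69.7% of 10111 tested genes with a window and in 52.4% of all 27305 genes of the table. For ACGTG alone the shares were 48.4% of the 31 genes, 32.3% of the tested genes and 24.9% of all genes. Of the 23 genes with a window that fell, 21 held either motif and 14 held ACGTG. All 11 genes with at least a 2-fold fall held either motif and 7 held ACGTG. Of the 4 that rose, 3 held either motif and 1 held ACGTG. SLC2A1 was among these with 1 match to GCGTG, 25 bases after the start. These are counts of letters in short windows and not of bound sites.

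Both alpha subunits were slightly lower in sh-KIF11. HIF1A encodes the alpha subunit found in nearly all cells. It had 161, 158 and 166 CPM in sh-ctrl and 121, 136 and 129 CPM in sh-KIF11 (log2 fold change -0.33, standard error 0.0518, edgeR adjusted p = 4.26e-07). All sh-KIF11 values lay below all sh-ctrl values, and the call was lost with library totals alone (-0.10, edgeR adjusted p = 0.0813). EPAS1, also called HIF-2 alpha, had 377, 365 and 359 CPM in sh-ctrl and 262, 274 and 278 CPM in sh-KIF11 (log2 fold change -0.44, standard error 0.0481, edgeR adjusted p = 1.45e-10). These groups did not overlap either. Per length, EPAS1 (48.2 ± 1.48 FPKM, SD, n = 3) stood above HIF1A (33.3 ± 0.413 FPKM) in sh-ctrl, and likewise in sh-KIF11 (40.3 ± 1.39 against 29.3 ± 1.79 FPKM). HIF3A, which encodes the third alpha subunit, had 1 count in sh-ctrl library 3 and none in the other libraries.

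ARNT, the common beta subunit, was not called. It had 46.4, 45.9 and 43.5 CPM in sh-ctrl and 48.5, 45.1 and 50.9 CPM in sh-KIF11 (log2 fold change 0.09, standard error 0.0682, edgeR adjusted p = 0.246), so the groups overlapped. ARNT was called higher in 4 other settings of scaling or testing, with values from 0.17 to 0.32. The direction of ARNT was the opposite of both alpha subunits in every setting tried, and whether it changed depended on the scale.

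Of the 4 regulators that act on HIF, 3 fell and 1 was not called. That is 75% called, near the 69.1% over all tested genes. VHL, the substrate receptor of the ligase that marks the alpha subunits, had 118, 107 and 120 CPM in sh-ctrl and 114, 106 and 106 CPM in sh-KIF11. VHL had a log2 fold change of -0.08 (standard error 0.0543, edgeR adjusted p = 0.195), and the groups overlapped. With library totals alone its direction turned and it was called higher (0.15, edgeR adjusted p = 0.0116). EGLN1, the main prolyl hydroxylase of the alpha subunits, had 77.8, 77.5 and 85.1 CPM in sh-ctrl and 72.4, 67.6 and 68.8 CPM in sh-KIF11 (log2 fold change -0.20, standard error 0.0576, edgeR adjusted p = 0.00202). Its groups did not overlap in CPM, whereas in FPKM they were nearly equal (12.6 ± 0.647 and 12.6 ± 0.405, SD, n = 3), and the call was lost in 4 settings, 1 of which turned the sign.

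The other 2 regulators were lower by more than EGLN1 in these estimates. EGLN3, a prolyl hydroxylase, had 2.41, 3.05 and 3.08 CPM in sh-ctrl and 1.40, 1.84 and 1.77 CPM in sh-KIF11 (log2 fold change -0.77, standard error 0.239, edgeR adjusted p = 0.00452). CITED2, which competes with HIF for the coactivators EP300 and CREBBP, had 12.3, 11.2 and 15.3 CPM in sh-ctrl and 8.12, 8.41 and 6.64 CPM in sh-KIF11 (log2 fold change -0.74, standard error 0.123, edgeR adjusted p = 1.31e-06). Neither gene overlapped between groups. Both kept the call in every setting, with an adjusted p of up to 0.0424 for EGLN3.

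CA9 and NDUFA4L2 had the largest fitted falls of the 33 genes. Both passed the filter on low counts through the sh-ctrl libraries, and entry in this way favours a fall over a rise. Neither was kept where at least 10 counts in every library were required. CA9 encodes a membrane carbonic anhydrase that regulates pH outside the cell. It had counts of 135, 120 and 125 in sh-ctrl, against 12, 12 and 8 in sh-KIF11, or 7.21 ± 0.491 CPM and 0.528 ± 0.106 CPM (SD, n = 3; log2 fold change -3.75, standard error 0.238, edgeR adjusted p = 1.2e-17). Every sh-KIF11 library was thus far below every sh-ctrl library, and the summed counts gave a 13.6-fold lower level (95% exact interval for counting error alone 9.48 to 20.2). The added 1 shrinks changes at low levels, and on log2(FPKM + 1) the value of CA9 was -1.89. CA12, a related carbonic anhydrase, had counts of 10, 8 and 3 in sh-ctrl, against 0, 2 and 4 in sh-KIF11, overlapped and was not tested.

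NDUFA4L2 encodes a HIF-induced relative of the respiratory chain protein NDUFA4. It had counts of 37, 41 and 54 in sh-ctrl, against 2, 5 and 3 in sh-KIF11, or 2.52 ± 0.601 CPM and 0.164 ± 0.0717 CPM (SD, n = 3; log2 fold change -3.87, standard error 0.406, edgeR adjusted p = 3.84e-11). The sh-KIF11 libraries were near the limit of detection, so the size is loosely set, and the summed counts gave a 15.1-fold lower level (95% exact interval for counting error alone 7.98 to 32.3). On log2(FPKM + 1) the value of NDUFA4L2 was -0.9997, smaller than those of CA9, ANKRD37, PFKFB4, LOX and BHLHE40 on that scale, and on log2(FPKM + 0.1) it was -2.77. NDUFA4 itself was 106 ± 7.58 CPM in sh-ctrl and 77.3 ± 3.02 CPM in sh-KIF11 (log2 fold change -0.45, standard error 0.0567, edgeR adjusted p = 4.24e-09). CA9 overlaps the coding gene ARHGEF39 on the other strand and NDUFA4L2 overlaps SHMT2, and the strand setting of the counting was not given in the sources used here.

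**Figure D2:**
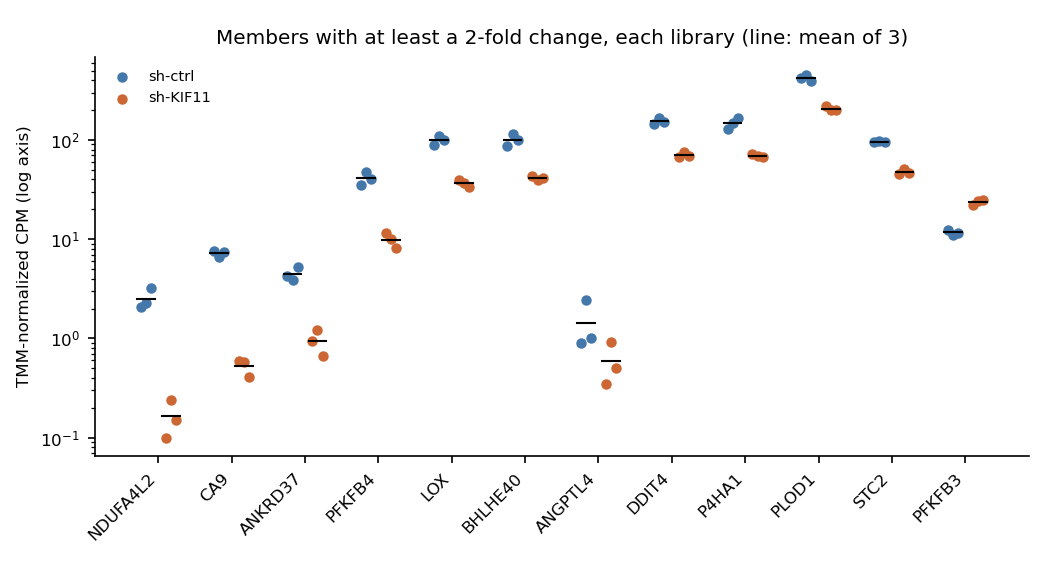
Level of the 12 genes with at least a 2-fold change in each library, in TMM-normalized CPM on a log axis. Blue points are the 3 sh-ctrl libraries, orange points the 3 sh-KIF11 libraries, and lines their means. Orange lies below blue in 11 of the genes, with overlap in ANGPTL4, and above blue in PFKFB3.

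The 3 genes of glucose entry and fructose-2,6-bisphosphate split. PFKFB3 and PFKFB4 encode bifunctional enzymes that make and degrade fructose-2,6-bisphosphate, an activator of glycolysis. PFKFB3 had 12.5, 11.1 and 11.6 CPM in sh-ctrl and 22.0, 24.3 and 24.5 CPM in sh-KIF11 (log2 fold change 1.01, standard error 0.0921, edgeR adjusted p = 8.01e-13). PFKFB4 had 34.8, 47.8 and 40.2 CPM in sh-ctrl and 11.6, 10.05 and 8.11 CPM in sh-KIF11 (log2 fold change -2.04, standard error 0.104, edgeR adjusted p = 7.98e-21). Neither gene overlapped between groups, and the order of the 2 levels changed. Per length, PFKFB4 was above PFKFB3 in sh-ctrl (3.84 ± 0.514 against 1.53 ± 0.0871 FPKM, SD, n = 3) and below it in sh-KIF11 (1.13 ± 0.25 against 3.53 ± 0.24 FPKM).

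SLC2A1 encodes GLUT1, the glucose transporter of most proliferating cells. It had 1023, 992 and 935 CPM in sh-ctrl and 1534, 1500 and 1471 CPM in sh-KIF11 (log2 fold change 0.61, standard error 0.048, edgeR adjusted p = 1.01e-14). All sh-KIF11 libraries were higher. SLC2A1 had the highest FPKM of the 36 genes in both groups (231 ± 10.4 and 409 ± 7.49, SD, n = 3). It made up 23.5% to 27.1% of the summed FPKM of the 36 genes in sh-ctrl and 45.5% to 46.9% in sh-KIF11. The FPKM sum itself was 885, 954 and 934 for the sh-ctrl libraries, against 884, 882 and 880 for the sh-KIF11 libraries. How near these sums lie depended on the scale. After TMM scaling, the summed CPM of the 36 genes ranged from 3748 to 3980 with the control hairpin. With the KIF11 hairpin it was lower, from 3259 to 3332. The TMM factors were 0.922 to 0.926 in sh-ctrl and 1.08 to 1.09 in sh-KIF11, so this gap depends on the scaling. Without SLC2A1 the sums were 645 to 721 FPKM in sh-ctrl and 469 to 480 FPKM in sh-KIF11, and the groups did not overlap.

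**Figure D3:**
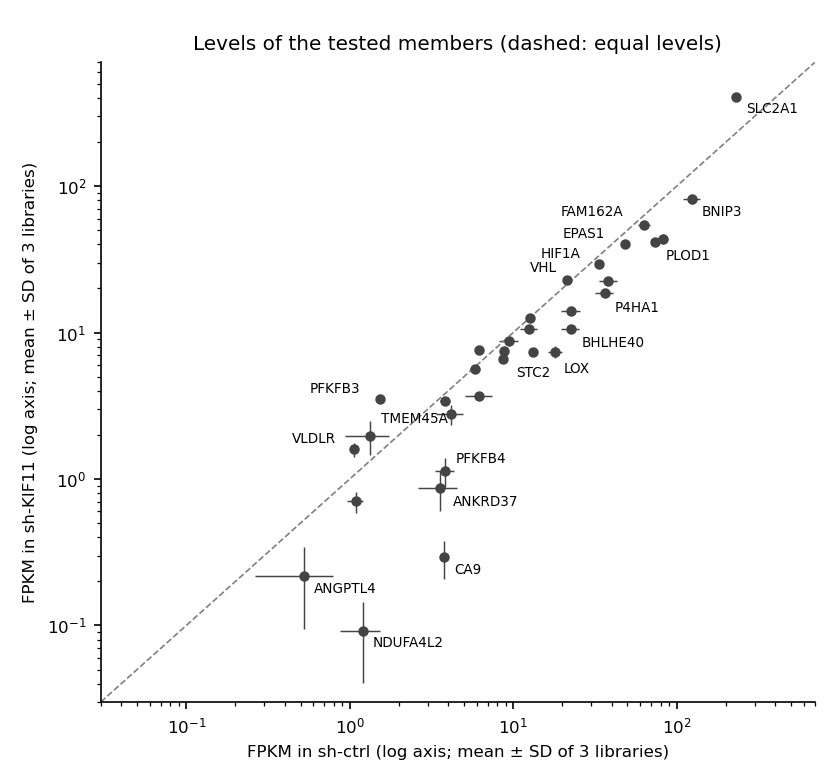
Mean FPKM of the 33 tested genes in sh-ctrl (horizontal) and sh-KIF11 (vertical), both on log axes, with bars of 1 SD over 3 libraries on either side and a dashed line of equal levels. SLC2A1 is the highest point and lies above the line, CA9 and NDUFA4L2 lie farthest below it, and PFKFB3 and PFKFB4 lie on opposite sides.

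All 5 genes of mitochondrial proteins fell, against 34.7% called lower over all tested genes, with a median log2 fold change of -0.79. Apart from NDUFA4L2, the largest fall was in PDK1, a kinase that inhibits pyruvate dehydrogenase and so keeps pyruvate out of the mitochondria. PDK1 was 42.4 ± 7.49 CPM in sh-ctrl and 22.0 ± 1.12 CPM in sh-KIF11 (SD, n = 3; log2 fold change -0.94, standard error 0.0901, edgeR adjusted p = 2.83e-12). BNIP3 and BNIP3L are outer membrane proteins that act in the removal of mitochondria by autophagy. BNIP3 was 222 ± 24.5 CPM in sh-ctrl and 129 ± 8.3 CPM in sh-KIF11 (log2 fold change -0.79, standard error 0.0592, edgeR adjusted p = 2.46e-15), and it was second in FPKM among the 36 genes in both groups (124 ± 14.4 and 81.4 ± 5.5). The annotation names 39 pseudogenes of BNIP3, and how reads shared with them were counted was not given in the sources used here.

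BNIP3L and FAM162A changed less. BNIP3L was 45.9 ± 5.64 CPM in sh-ctrl and 34.8 ± 0.967 CPM in sh-KIF11 (SD, n = 3; log2 fold change -0.40, standard error 0.0772, edgeR adjusted p = 1.78e-05). FAM162A, a HIF-responsive mitochondrial protein, was 59.8 ± 4.85 CPM in sh-ctrl and 45.6 ± 2.11 CPM in sh-KIF11 (log2 fold change -0.39, standard error 0.0678, edgeR adjusted p = 3.06e-06). Neither gene overlapped between groups, and both overlap a coding gene on the other strand.

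All 5 collagen and matrix enzymes fell, against 34.7% called lower over all tested genes, with a median log2 fold change of -1.03. LOX encodes lysyl oxidase, which crosslinks collagen and elastin. It had 89.1, 110 and 99.4 CPM in sh-ctrl and 39.2, 36.6 and 33.4 CPM in sh-KIF11 (log2 fold change -1.45, standard error 0.0684, edgeR adjusted p = 6.51e-22). P4HA1, an alpha subunit of collagen prolyl 4-hydroxylase, had 130, 149 and 166 CPM in sh-ctrl and 72.7, 68.1 and 67.6 CPM in sh-KIF11 (log2 fold change -1.09, standard error 0.0623, edgeR adjusted p = 3.49e-19). Both genes separated the groups fully. LOX overlaps the coding gene SRFBP1 on the other strand. P4HA2, the other alpha subunit in the set, changed less, from 63.2 ± 0.491 to 45.8 ± 0.415 CPM (SD, n = 3; log2 fold change -0.46, standard error 0.0624, edgeR adjusted p = 1.72e-08), and it overlaps the coding genes PDLIM4 and SLC22A4 on the other strand.

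PLOD1 and PLOD2 are lysyl hydroxylases, which prepare collagen for crosslinking. PLOD1 had 422, 449 and 391 CPM in sh-ctrl and 217, 201 and 202 CPM in sh-KIF11 (log2 fold change -1.03, standard error 0.0521, edgeR adjusted p = 7.65e-21). PLOD2 was 187 ± 23.9 CPM in sh-ctrl and 100 ± 3.14 CPM in sh-KIF11 (SD, n = 3; log2 fold change -0.90, standard error 0.0611, edgeR adjusted p = 9.56e-17). The groups did not overlap for either gene, and the spread of PLOD2 was wider in sh-ctrl than in sh-KIF11.

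Among the 4 secreted proteins, 3 were tested and 2 fell. That is 66.7% called, near the 69.1% over all tested genes. STC2, a stanniocalcin glycoprotein hormone, had 96.2, 97.4 and 94.7 CPM in sh-ctrl and 45.3, 51.1 and 46.0 CPM in sh-KIF11 (log2 fold change -1.02, standard error 0.0592, edgeR adjusted p = 7.3e-19). Its paralog STC1 had 1 count in all 6 libraries together. ANGPTL4, an inhibitor of lipoprotein lipase, had counts of 16, 44 and 17 in sh-ctrl, against 7, 19 and 10 in sh-KIF11 (log2 fold change -1.28, standard error 0.391, edgeR adjusted p = 0.0038). Its groups overlapped, sh-ctrl library 2 stood well above the others, and without that library the call was lost (-0.67, edgeR adjusted p = 0.187). Like CA9 and NDUFA4L2, ANGPTL4 passed the filter on low counts through the sh-ctrl libraries, which favours a fall over a rise. ADM, the vasodilator adrenomedullin, was not called although its groups did not overlap, with 9.53, 10.4 and 9.12 CPM in sh-ctrl and 8.62, 8.36 and 8.21 CPM in sh-KIF11 (log2 fold change -0.21, standard error 0.118, edgeR adjusted p = 0.115). Its sign turned with library totals alone (0.023).

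The 3 JmjC dioxygenases, enzymes that need oxygen and 2-oxoglutarate, fell by small amounts, against 34.7% called lower over all tested genes. JMJD6 was 65.8 ± 2.6 CPM in sh-ctrl and 45.6 ± 0.865 CPM in sh-KIF11 (SD, n = 3; log2 fold change -0.53, standard error 0.0629, edgeR adjusted p = 8.98e-10). The histone lysine demethylases KDM4B and KDM3A had log2 fold changes of -0.35 (standard error 0.0693, edgeR adjusted p = 2.92e-05) and -0.27 (standard error 0.0657, edgeR adjusted p = 0.00042). The groups did not overlap in any of the 3 genes, but those of KDM3A nearly met. KDM3A had 64.3 CPM in sh-ctrl library 1 and 63.5 CPM in sh-KIF11 library 1. Its raw count in that sh-ctrl library, 1147, was below all sh-KIF11 counts (1274, 1252 and 1218). The calls of KDM3A and KDM4B were lost with library totals alone and in both FPKM fits.

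Of the 6 other induced genes, 4 fell and 2 rose, against 34.7% called lower and 34.4% higher over all tested genes. ANKRD37, an ankyrin repeat protein, had counts of 76, 70 and 88 in sh-ctrl, against 19, 25 and 13 in sh-KIF11, or 4.45 ± 0.688 and 0.938 ± 0.274 CPM (SD, n = 3; log2 fold change -2.23, standard error 0.25, edgeR adjusted p = 2.25e-10). BHLHE40, a transcriptional repressor of the circadian clock, had 85.8, 115 and 99.4 CPM in sh-ctrl and 43.0, 39.2 and 41.1 CPM in sh-KIF11 (log2 fold change -1.28, standard error 0.0712, edgeR adjusted p = 1.46e-19). In both genes the highest sh-KIF11 library was below the lowest sh-ctrl library. ANKRD37 overlaps the coding gene UFSP2 on the other strand.

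DDIT4 encodes REDD1, which inhibits mTORC1 under stress. It had 144, 167 and 152 CPM in sh-ctrl and 66.6, 75.3 and 69.0 CPM in sh-KIF11 (log2 fold change -1.13, standard error 0.0575, edgeR adjusted p = 7.74e-21). NDRG1, a stress-responsive cytoplasmic protein, was 167 ± 22.3 CPM in sh-ctrl and 91.7 ± 1.83 CPM in sh-KIF11 (SD, n = 3; log2 fold change -0.87, standard error 0.0619, edgeR adjusted p = 5.49e-16). Neither overlapped between groups.

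VLDLR and TMEM45A were higher in sh-KIF11. VLDLR, a receptor for triglyceride-rich lipoproteins, was 6.90 ± 0.274 CPM in sh-ctrl and 9.59 ± 0.925 CPM in sh-KIF11 (SD, n = 3; log2 fold change 0.47, standard error 0.126, edgeR adjusted p = 0.00101). TMEM45A, a transmembrane protein, had 2.30, 3.38 and 3.85 CPM in sh-ctrl and 5.53, 4.06 and 4.06 CPM in sh-KIF11 (log2 fold change 0.52, standard error 0.197, edgeR adjusted p = 0.0181). The groups did not overlap in either gene, but those of TMEM45A nearly met. The call of TMEM45A was lost without sh-ctrl library 1 (0.34, edgeR adjusted p = 0.144), without sh-KIF11 library 1 (0.35, edgeR adjusted p = 0.157) and in both FPKM fits (limma adjusted p = 0.0516 and 0.0531).

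To compare related genes without any scaling between libraries, the log2 ratio of their CPM was taken within each library for 9 pairs. The size and sign of such a ratio depend on gene length, which cancels in its difference between groups. With 3 libraries against 3, an exact two-sided permutation test cannot give a p below 0.1, and the smallest value after Benjamini-Hochberg adjustment over the 9 pairs was 0.113. The ratio of PFKFB3 to PFKFB4 was -1.78 ± 0.314 in sh-ctrl, against 1.26 ± 0.334 in sh-KIF11 (SD, n = 3; difference 3.04, exact permutation p = 0.1, adjusted 0.113). This difference was the widest of the 9 with the prior count of 2, but not with a prior count of 0.5, which gave 3.05 here and -3.33 for NDUFA4L2 to NDUFA4. The ratio of NDUFA4L2 to NDUFA4 was -5.35 ± 0.216 in sh-ctrl and -8.19 ± 0.414 in sh-KIF11 (difference -2.84, exact permutation p = 0.1). The ratio of P4HA1 to P4HA2 fell by 0.62, that of BNIP3 to BNIP3L fell by 0.39 and that of EGLN1 to EGLN3 differed by 0.53, each without overlap (exact permutation p = 0.1 each). The ratio of HIF1A to EPAS1 moved little, from -1.18 ± 0.0586 to -1.08 ± 0.0561 (difference 0.10, exact permutation p = 0.1). PLOD1 to PLOD2 overlapped between groups, with 1.17 ± 0.238 and 1.04 ± 0.0676 (difference -0.13, exact permutation p = 0.5). The pairs CA9 to CA12 (-2.22) and STC1 to STC2 (0.81) each held a gene near the limit of detection.

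**Figure D4:**
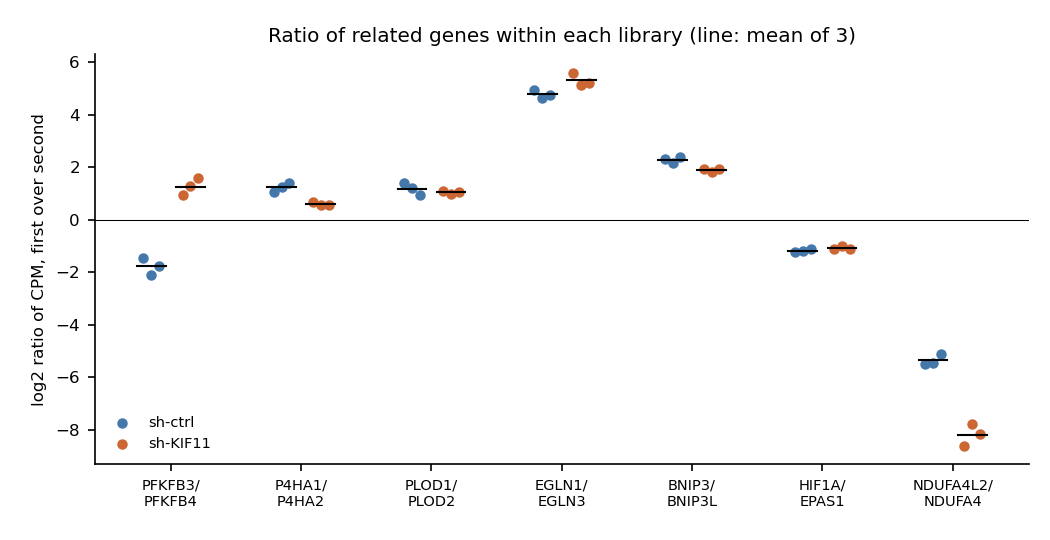
Log2 ratio of the CPM of related genes within each library for the 7 pairs in which both genes were tested. Blue points are sh-ctrl, orange points sh-KIF11 and lines the means of 3 libraries. The PFKFB3 to PFKFB4 ratio moves from -1.78 to 1.26, and the PLOD1 to PLOD2 ratio overlaps.

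The libraries of a group did not rank alike in all genes. Among the 26 genes that fell, sh-ctrl library 1 was the lowest of its group in 15, and the highest sh-ctrl value lay in library 2 for 11 genes and in library 3 for 12. In sh-KIF11 the highest value was spread over the 3 libraries (10, 10 and 6 genes). With each library left out in turn, 25 or 26 of the 33 genes were lower and 3 or 4 were higher.

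Other genes of the pathway were read from lists that are not part of the 36, and these were also chosen with earlier results known. Over all tested genes 34.7% were called lower and 34.4% higher. Of 17 glycolytic HIF targets, all tested, 14 fell, 2 rose and 1 was not called, with a median log2 fold change of -0.82. The genes with the largest changes there were the 2 that rose, the phosphofructokinase PFKP (2.49 ± 0.409 to 12.4 ± 1.21 CPM, SD, n = 3; log2 fold change 2.32, edgeR adjusted p = 2.67e-17) and the hexokinase HK1 (1.82 ± 0.13 to 7.87 ± 0.495 CPM; log2 fold change 2.11, edgeR adjusted p = 8.92e-14). Of 9 genes of HIF degradation and coactivation, 8 were tested, 5 fell, 1 rose and 2 were not called, with a median of -0.14. That is 75% called, near the 69.1% over all tested genes, and the balance turned to 1 lower and 3 higher with library totals alone and to 1 lower and 2 higher in both FPKM fits. The largest changes were in the prolyl hydroxylase EGLN2 (log2 fold change -0.42, edgeR adjusted p = 4.88e-07) and the ligase subunit ELOB (-0.36, edgeR adjusted p = 2.72e-06). Of 15 tested genes in a list of other hypoxia induced genes, 9 fell, 5 rose and 1 was not called, with a median of -0.48. The largest changes in this list were in the hormone EPO (5.95 ± 0.389 to 1.67 ± 0.219 CPM, SD, n = 3; log2 fold change -1.83, edgeR adjusted p = 7.49e-11) and the vascular growth factor VEGFA (120 ± 2.85 to 46.1 ± 3.7 CPM; log2 fold change -1.39, edgeR adjusted p = 1.73e-23). The KEGG term HIF-1 signaling pathway in the deposited annotation was looked at after the data were seen. It had 79 tested genes, of which 45 fell and 20 rose, with a median of -0.20. That is 82.3% called, against 69.1% over all tested genes, and 8 of the 79 were among the 36 genes. Library totals alone moved the median of all tested genes to 0.24, and this list was not computed again with that scaling.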

How the data were processed

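Poly(A) RNA of HepG2 cells was measured in 3 sh-ctrl and 3 sh-KIF11 libraries, grouped by the sample labels. The authors deposited raw counts per gene and FPKM values of the same genes, with the knockdown columns named shRNA. Per the labels, the submitters' processing notes name bcl2fastq 1.8.4, Trimmomatic, HISAT2 2.1.0, HTSeq 0.9.1, Cufflinks 2.2.1, DESeq and GRCh38/hg38, and the strand setting of the counting is not given in the sources used here. Multi-copy genes and genes that overlap on opposite strands are therefore uncertain. Overlaps on the same strand, such as PFKFB4 with UCN2 and EGLN3 with SPTSSA, are uncertain under any strand setting. Counts were tested in R 4.3.3 with edgeR 4.0.16 (TMM, filterByExpr, quasi-likelihood, group as the only term, all 6 libraries, threshold 0.05). The biological coefficient of variation was 4.87%. DESeq2 1.42.0, limma 3.58.1 on log2(FPKM + 1) and log2(FPKM + 0.1), RLE, upper-quartile and total scaling, other filters, a replicate block and leaving out each library were alternatives. Log ratios within a library used a prior count of 2. On simulated counts with a log2 change of 1 planted in 196 of 12328 genes, edgeR recovered 96.9% with 7 false calls. The simulation had 1 dispersion for all genes and far fewer changed genes than were called here. It therefore does not give the number of false calls in these data. Gene positions came from GENCODE release 29 and promoter windows from RefSeq (GRCh38.p14). Depth, 18167773 to 19583282 counts per library, limits low genes, and intervals and limits cover counting error only.

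The 36 genes and all lists were chosen with earlier results of these data known. All 36 genes and KIF11 are accounted for, with values in each library for those with at least a 2-fold change and for the HIF subunits and regulators. Of each other list, the 2 tested genes with the largest absolute log2 fold change among called genes are named. The untested genes ARNT2 and NOS2 are given by counts.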

Additional observations from a re-analysis of the deposited data

How the results depend on the processing

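Each value was computed again under up to 15 alternatives. The counts of the 36 genes that fell or rose stayed within 1.5 times of 26 and 4 in all of them, and KIF11 was lower in each. Over all results 691 of 744 values were counted as the same. For single genes this meant the same side of the threshold and, where called in either fit, the same direction. Counts had to stay within 1.5 times, and medians within the spread between libraries. Differences of gene pairs were judged by their sign alone, with no threshold, so they could fail only by turning sign. Scaling set the zero point, since library totals alone moved the median log2 fold change of all genes from 0.00 to 0.24 and the share of called genes that were higher from 49.8% to 73.6% (68.5% and 68.6% in the FPKM fits). The median of the tested genes of the set, -0.74, became -0.66 with upper-quartile factors, -0.51 with library totals alone, -0.47 with at least 10 counts in every library, -0.32 with limma on log2(FPKM + 1) and -0.56 on log2(FPKM + 0.1), and ranged from -0.77 to -0.61 when 1 library was left out. Relative to the median of all genes it was -0.75 in the reported fit and with library totals alone, -0.48 with at least 10 counts in every library and -0.43 on log2(FPKM + 1).

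The 11 genes with at least a 2-fold fall became 7 with library totals alone, 7 with at least 10 counts in every library, which drops low genes, 5 on log2(FPKM + 1) and 6 on log2(FPKM + 0.1). The 1 gene with at least a 2-fold rise, PFKFB3 at 1.01, fell short of 2-fold without a count filter (0 genes), on log2(FPKM + 1) (0 genes) and without sh-ctrl library 2 or 3 or sh-KIF11 library 2 or 3 (0 to 1 genes over all 6 such fits), while its call was kept. VHL turned to 0.15 and EGLN1 to 0.028 with library totals alone. Of the genes of HIF degradation and coactivation, 5 fell in the reported fit, 3 with upper-quartile factors, 1 with library totals alone and 1 in each FPKM fit, and 1 rose in the reported fit, 3 with library totals alone, 2 without a count filter and 2 in each FPKM fit, with 3 to 5 lower (3 without sh-ctrl library 1) and 1 to 2 higher (1 only without sh-KIF11 library 1 or 3) when a library was left out.

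With the replicate block, 4 of the tested genes of the set were higher and 26 lower (median -0.74), 8607 genes were called in place of 8548, and no call changed among the 33 tested genes of the set. Deviations of same-numbered libraries from their group means had correlations of 0.03, -0.0185 and -0.00253, so the numbers did not pair the libraries. Genes with few counts, such as NDUFA4L2, CA9 and ANGPTL4, are limited by depth.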
